A study of Saccharomyces cerevisiae with 6 samples.

Results

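Peroxisomal fatty acid beta-oxidation is carried in Saccharomyces cerevisiae by a small set of genes, of which 10 were followed here: POX1, FOX2, POT1, FAA2, PXA1, PXA2, ECI1, DCI1, CTA1 and SPS19. They were listed by name as genes of the pathway, with earlier results of these data known. All 10 had a probe set whose annotation names that gene alone, and each had exactly 1 such probe set, out of 5449 genes measured. The compared strains were a Gcr2 deletion mutant (3 arrays) and the wild-type strain FY4 (3 arrays). Gcr2 is a transcriptional activator of glycolytic genes. Cells of either strain were taken in the exponential phase of shaken batch cultures at 30 °C, with glucose as the carbon source of a minimal medium. The labels name the FY4 strain for the wild type only, give no construction of the deletion allele, and do not say whether replicates came from separate cultures, so the p-values cover the spread among these arrays, part or all of which may be technical.

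In yeast, beta-oxidation takes place only in peroxisomes, and its genes are repressed by glucose and induced by fatty acids such as oleate. Fatty acids enter either as CoA esters through an ABC transporter or as free acids that are activated inside. The chain is then shortened by an oxidase, a bifunctional hydratase and dehydrogenase, and a thiolase. An isomerase and a reductase handle double bonds, and a catalase removes the hydrogen peroxide made by the oxidase. Induction depends on the oleate-responsive activators Oaf1 and Pip2 together with Adr1, an activator that works when glucose is short.

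Values are log2 of the probe-set intensities that the authors deposited, and differences are gcr2 deletion minus wild type. Limma was fitted to all 5449 genes, a Benjamini-Hochberg adjusted p under 0.05 counted as a call, and "fell" and "rose" are used of called genes only. The probe sets for the other yeast species on the array gave each array's background, as their 95th percentile, which lay between 6.16 and 6.60 on deletion arrays and between 6.12 and 6.48 on wild-type arrays. GCR2 itself was at 4.59 ± 0.15 on the 3 deletion arrays, each of them below background for this gene, and at 11.11 ± 0.05 in wild type (SD, n = 3 each), at least 27.5-fold lower (limma adjusted p = 1.01e-06).

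Of the 10 beta-oxidation genes, 4 fell in the deletion (FAA2, CTA1, POT1 and ECI1), 0 rose and limma left 6 without a call. Over all genes 22.5% passed, 14.1% as higher and 8.35% as lower in the deletion. The members' changes were small: their median difference was -0.22, between -0.61 and 0.09, against a median of 0.02 over all genes, and 0 members changed by 2-fold or more. The deletion value was the lower in 8 members and the higher in 2. In 5 members every deletion array lay below every wild-type array, and in 0 members above; over all genes the groups did not overlap in 45.2%, with the deletion lower in 18.1% and higher in 27.1%. These directions are relative to the bulk of each array, and 8 of the 10 members turned to higher in the deletion when arrays were centred on their poly-A spike-in controls instead, a scaling that moved the median of all genes by 0.91. The members' median lay 0.24 below that of all genes, a gap that such a shift of whole arrays leaves as it is.

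**Figure D1:**
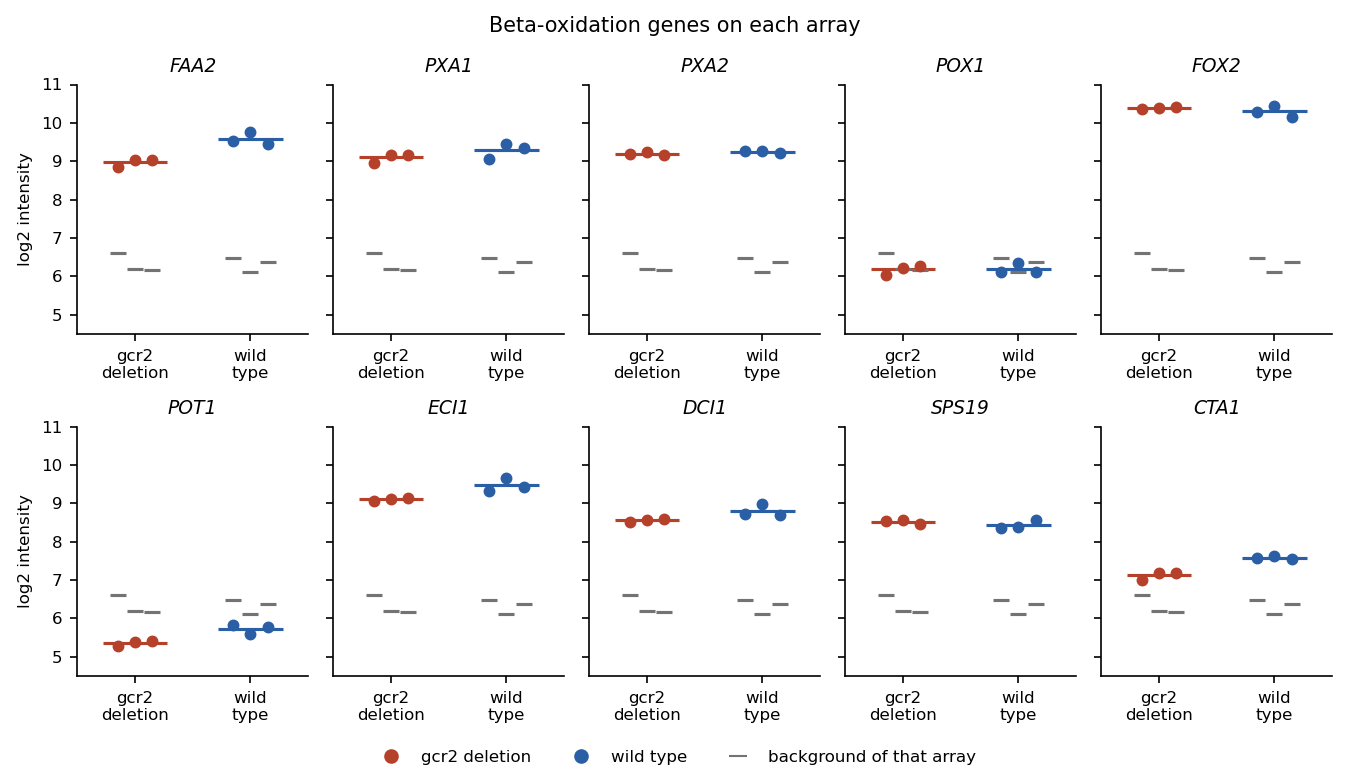
Log2 intensity (vertical axis) of each beta-oxidation gene on the 3 gcr2 deletion arrays (left of each panel) and the 3 wild-type arrays (right); points are arrays in the order of their replicate numbers, horizontal lines are group means, and grey ticks mark the background of each array. POT1 lay under background on all 6 arrays and POX1 close to it. FAA2, CTA1, ECI1, DCI1 and POT1 had deletion points that all lay below the wild-type points.

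Signal near background limited 3 members. POT1 was under background on all 6 arrays, by 0.76 to 1.32 in the deletion and by 0.53 to 0.65 in wild type. POX1 was above background on 2 of 3 deletion arrays and on 1 of 3 wild-type arrays, and never by more than 0.24. CTA1 was above background on all 6 arrays, by 0.40 to 1.03 in the deletion and by 1.10 to 1.503 in wild type. The other 7 members lay at least 1 log2 unit above background on every array. Leaving POT1 and POX1 aside, 3 of the 8 members that were above background on all arrays fell. The 8.35% called lower is over all 5449 genes without that filter. Of those genes, 5257 were above background on all arrays, and their share called lower was not worked out.

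Among the genes that bring fatty acids into the pathway, the peroxisomal acyl-CoA synthetase gene fell and both transporter genes were not called. FAA2, whose product activates medium-chain fatty acids inside the peroxisome, was at 8.84, 9.03 and 9.04 on the deletion arrays, against 9.53, 9.76 and 9.46 on the wild-type arrays. The highest deletion value was below the lowest wild-type value. FAA2 fell by 0.61 (SE 0.10, limma adjusted p = 0.010), which is 1.53-fold lower, and 1.6% of all genes had a difference that low or lower.

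PXA1 and PXA2 code for both subunits of the ABC transporter that carries long-chain acyl-CoA into the peroxisome. PXA1 was at 8.96, 9.18 and 9.17 in the deletion, against 9.07, 9.45 and 9.35 in wild type, and wild-type replicate 1 lay inside the deletion range. Its difference of -0.19 was not called (95% interval -0.47 to 0.09). PXA2 was at 9.19, 9.24 and 9.17 in the deletion, against 9.28, 9.26 and 9.21 in wild type, and the groups overlapped. Its difference was -0.05, with the narrowest interval of the members, -0.15 to 0.05. The interval of PXA1 includes a fall of the size seen for ECI1, and that of PXA2 does not.

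The core enzymes of the cycle gave a call only at the thiolase step, and there without a level above background. POX1, the acyl-CoA oxidase gene, was at 6.04, 6.23 and 6.27 in the deletion, against 6.11, 6.36 and 6.12 in wild type. These ranges overlapped and the difference of -0.02 was not called (adjusted p = 0.91). FOX2, the gene of the bifunctional hydratase and dehydrogenase, was at 10.37, 10.39 and 10.40 in the deletion, against 10.30, 10.44 and 10.16 in wild type. The deletion arrays lay within the wild-type range, and the difference of 0.09 had a 95% interval of -0.09 to 0.27.

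POT1 codes for the peroxisomal ketoacyl-CoA thiolase. It was at 5.28, 5.38 and 5.40 in the deletion, against 5.83, 5.59 and 5.78 in wild type, and the groups did not overlap. Limma called it lower by 0.38 (SE 0.08, adjusted p = 0.020), but with both groups under background no fold change is given. The call was lost in 9 of the 16 alternatives that gave POT1 a value and its sign turned in 1, and it was lost with deletion replicate 1, 2 or 3 or wild-type replicate 1 left out (adjusted p = 0.069, 0.059, 0.066 and 0.051).

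Of the 3 genes listed for unsaturated fatty acids, ECI1 fell and the others were not called. ECI1, the enoyl-CoA isomerase gene, was at 9.06, 9.11 and 9.14 in the deletion, against 9.32, 9.66 and 9.44 in wild type. All deletion values lay below all wild-type values, and ECI1 fell by 0.37 (SE 0.09, limma adjusted p = 0.034), or 1.29-fold. The ECI1 call was lost in 7 of 17 alternatives and its sign turned in 1. Those losses included leaving out deletion replicate 1, 2 or 3 or wild-type replicate 3 (limma adjusted p = 0.11, 0.095, 0.10 and 0.065).

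DCI1, the paralog of ECI1 that was named as a dienoyl-CoA isomerase gene, was at 8.52, 8.57 and 8.58 in the deletion. In wild type it was at 8.72, 8.99 and 8.70. The groups did not overlap, but the difference of -0.24 (95% interval -0.45 to -0.04) was not called after adjustment (adjusted p = 0.085). Repeating quantile normalization over the tested genes brought DCI1 past the threshold (difference -0.31, adjusted p = 0.028).

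SPS19, the dienoyl-CoA reductase gene, first named for its expression in sporulation, was at 8.53, 8.56 and 8.45 in the deletion, against 8.37, 8.39 and 8.56 in wild type. The groups overlapped and the difference of 0.08 had a 95% interval of -0.08 to 0.24. SPS19 (YNL202W) is also the member closest to the deleted gene: in assembly R64 only PSY2 and NNR1 lie between it and GCR2 (YNL199C). Sporulation markers were read beside it. Their summed intensity over 14 genes was 3209 to 3430 on deletion arrays and 4082 to 4337 on wild-type arrays, and 8 of the 14 were above background on all arrays. That gap came from SPS4, which fell by 1.63. Without SPS4, left out after its values were seen, the other 13 summed to 2666 to 2880 on deletion arrays and to 2460 to 2713 on wild-type arrays, and these ranges overlapped. Of the 14 markers, HOP1, SPO13 and SPO11 rose by 1.42, 0.82 and 0.52. HOP1 was above background on only 1 of 3 wild-type arrays, and SPO13 cleared it by as little as 0.19. Background limits the sizes given for HOP1 and SPO13. SPS4, SMK1 and IME1 fell, the last 2 by 0.40 and 0.33, and 8 were not called. SMK1 was above background on 2 of 3 deletion arrays. Of all genes, 14.1% were called higher and 8.35% lower. The part of the sporulation markers in the SPS19 value was not tested.

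CTA1, the gene of peroxisomal catalase A, was at 7.002, 7.18 and 7.19 in the deletion, against 7.58, 7.62 and 7.54 in wild type. The gap between the groups was wider than the range within either. CTA1 fell by 0.46 (SE 0.06, limma adjusted p = 0.0072), which is 1.37-fold lower. CTA1 cleared background by as little as 0.40 in the deletion, which limits the size given. Apart from the centring on spike-in controls, its call held in the other 16 alternatives, while FAA2 lost its call only under that centring and at the stricter threshold of 0.01.

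**Figure D2:**
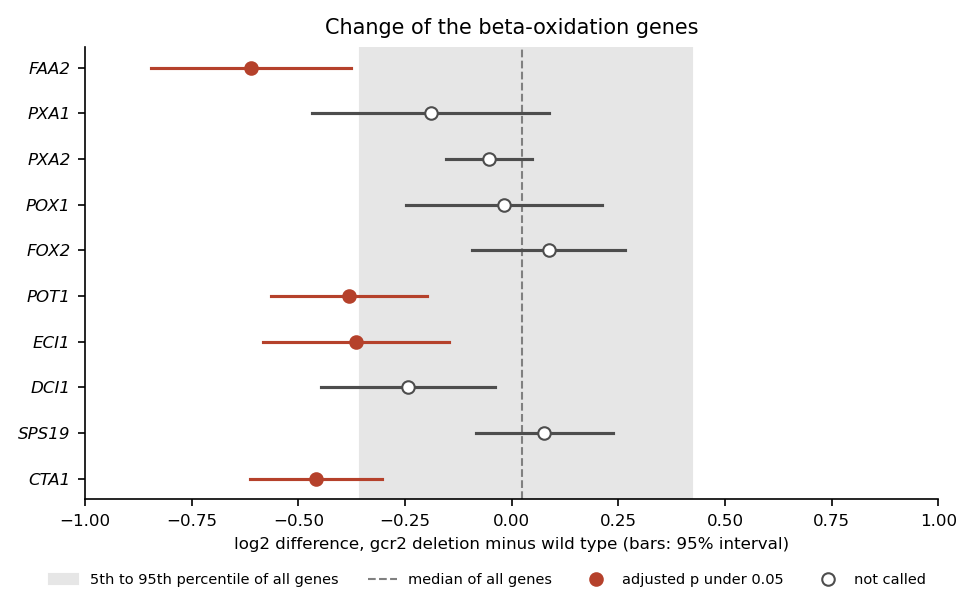
Log2 difference, gcr2 deletion minus wild type (horizontal axis), of each beta-oxidation gene, with bars for limma's 95% interval; filled red points are called genes and open points are not called, the dashed line is the median of all 5449 genes, and the grey band runs from their 5th to their 95th percentile (-0.35 to 0.42). FAA2, CTA1, POT1 and ECI1 lie below the lower edge of the band, and the other members lie inside it.

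Within each group the same array was often at the end of the range. Deletion replicate 1 was the lowest deletion array for 8 of the 10 members, all but PXA2 and SPS19. It also had the highest background of the 6 arrays. Wild-type replicate 2 was the highest wild-type array for 7 members, and it had the lowest background. The members' intensities summed to between 4363 and 4615 on deletion arrays and to between 4861 and 5543 on wild-type arrays. The groups thus did not overlap in the sum, and the lowest deletion and highest wild-type sums were on the arrays just named. Such a separation was common among the related gene lists described below. Genes of fatty acid activation, transport and the carnitine shuttle, and peroxins, also summed lower in the deletion without overlap. Auxiliary enzymes, inheritance and fission genes, and counterparts outside the peroxisome summed higher without overlap. The sums of the regulators overlapped. With deletion replicate 1 left out 2 members were called, FAA2 and CTA1. Without deletion replicate 2 and without deletion replicate 3 the number was again 2. It was 3, 4 and 3 without wild-type replicates 1, 2 and 3. Calls over all 5449 genes changed as well. They numbered 1224 with all arrays, and 483, 543 and 406 without deletion replicates 1, 2 and 3. Without wild-type replicates 1, 2 and 3 they numbered 786, 1225 and 1011.

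Changes were also compared inside each array between genes of related function, for 6 pairs chosen after their values were seen. With 3 arrays against 3 the smallest two-sided p that the exact permutation test allows is 0.10, so 0 of these pairs could pass 0.05. For catalases the contrast was the widest. CTT1, the gene of cytosolic catalase T, which is induced by stress, was at 9.85, 10.22 and 10.14 in the deletion, against 8.95, 9.38 and 9.03 in wild type. CTT1 rose by 0.95 (SE 0.14, limma adjusted p = 0.0094), opposite to CTA1. The log2 difference of CTA1 minus CTT1 was -2.95 ± 0.09 in the deletion and -1.53 ± 0.20 in wild type (SD, n = 3 each), a change of -1.41 (exact permutation p = 0.10, 0.12 adjusted over the 6 pairs). Background limits the size of this change, since CTA1 lay near it.

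FAA2 was set against the other acyl-CoA synthetase genes. FAA1 and FAA4, which serve fatty acid import from the medium, differed by -0.12 and 0.07, and FAA3 by -0.17; these 3 were not called. Relative to FAA1, FAA3 and FAA4 on the same array, FAA2 was lower in the deletion by 0.49, 0.44 and 0.68 on the log2 scale, with no overlap between groups (exact permutation p = 0.10 for each, 0.12 adjusted). ECI1 minus DCI1 was 0.55 ± 0.01 in the deletion and 0.67 ± 0.07 in wild type, a change of -0.12 without overlap (exact permutation p = 0.10, n = 3 each). PXA1 minus PXA2 was -0.10 ± 0.12 in the deletion and 0.04 ± 0.22 in wild type, and there the groups overlapped (exact permutation p = 0.40).

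**Figure D3:**
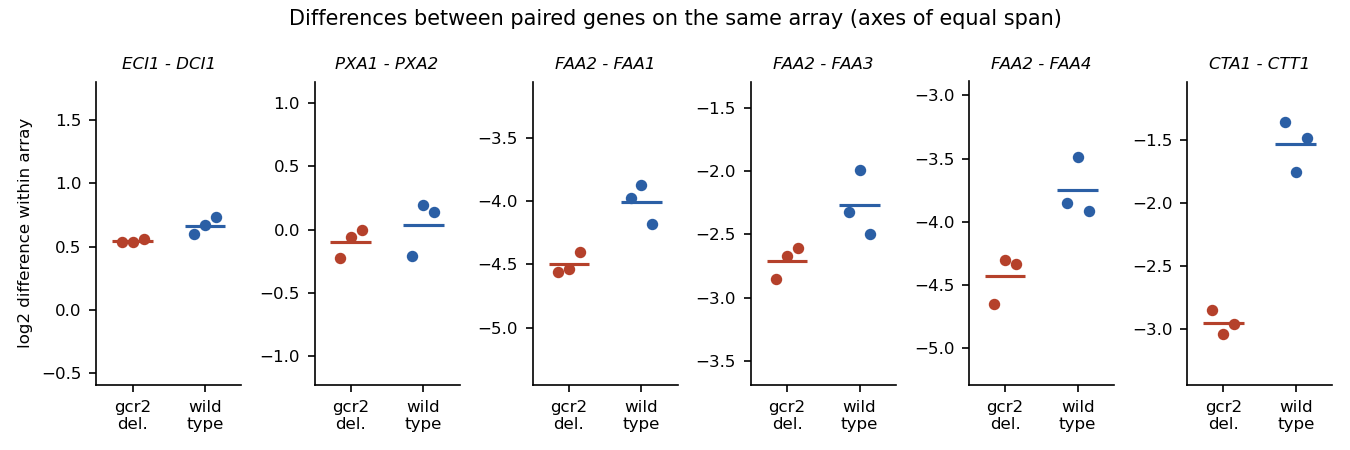
Log2 intensity of the gene named before the minus sign less that of the gene after it, on the same array (vertical axes, each of the same span but centred on its own pair), for gcr2 deletion (left) and wild-type arrays (right); points are arrays and lines are group means. CTA1 minus CTT1 shows the widest gap between groups, and PXA1 minus PXA2 is the pair whose groups overlap.

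Other genes that serve the pathway went in both directions. Among 9 genes of fatty acid activation, transport and the carnitine shuttle, 2 fell, 1 rose and 6 were not called, with a median of 0.04. For comparison, 8.35% of all genes were called lower and 14.1% higher. ANT1, the peroxisomal adenine nucleotide carrier that supplies ATP for activation by Faa2, fell by 0.24 (limma adjusted p = 0.016), which 5 of 17 alternatives did not call. FAT1, which takes part in very-long-chain fatty acid uptake and activation, fell by 0.17 (adjusted p = 0.033), which 10 did not call. CAT2, the carnitine acetyltransferase that exports acetyl units, was at 9.13, 9.13 and 9.12 in the deletion, against 8.66, 8.80 and 8.64 in wild type, and rose by 0.42 (adjusted p = 0.0054). CRC1, the mitochondrial carnitine carrier, differed by 0.56 and was not called (limma adjusted p = 0.0502), nor did 11 of 17 alternatives call it. CRC1 cleared background by as little as 0.65.

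Of 13 auxiliary peroxisomal enzymes, 4 rose, 0 fell and 9 were not called, against 14.1% called higher and 8.35% called lower over all genes, and the median was 0.14. PCS60, a peroxisomal CoA ligase gene, was at 11.57 on each of the deletion arrays, against 10.99, 10.88 and 10.87 in wild type, and rose by 0.66 (limma adjusted p = 0.00079). PNC1, the nicotinamidase gene, rose by 0.83 (adjusted p = 0.0075), NPY1, an NADH pyrophosphatase gene, by 0.24, and GTO1, a glutathione transferase gene, by 0.41. NPY1 was not called by 4 of 17 alternatives and GTO1 by 7. Enzymes that work closely with beta-oxidation, named after their values were seen, were among the uncalled. IDP3, which supplies NADPH for the reductase Sps19, differed by -0.29, MDH3, which reoxidizes NADH, by -0.16, and TES1, the acyl-CoA thioesterase, by 0.20.

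Peroxins, the proteins that build peroxisomes and import their enzymes, were measured for 25 of 29 listed genes. Of these 2 fell, 1 rose and 22 were not called, against 22.5% called over all genes, and the median was -0.02. PEX21, a coreceptor for import, fell by 0.25, PEX3, a membrane assembly factor, fell by 0.20, and PEX7, the import receptor that brings in the thiolase, rose by 0.18. At least 7 of 17 alternatives did not make these calls. Among 6 genes of peroxisome inheritance, fission and turnover, INP1, which retains peroxisomes in the mother cell, rose by 0.24, which 8 of 17 alternatives did not call, and 5 were not called.

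The regulators known for these genes moved unequally. ADR1 was at 8.60, 8.64 and 8.69 in the deletion, against 9.54, 9.75 and 9.76 in wild type. The groups lay far apart, and ADR1 fell by 1.04 (SE 0.07, limma adjusted p = 0.00078), 2.05-fold. Centred on the poly-A spike-in controls, ADR1 differed by -0.13 and lost its call (adjusted p = 0.68), and the other 16 alternatives called it lower. OAF1 rose by 0.15 (adjusted p = 0.042), and 12 of 17 alternatives did not call it. PIP2, the partner of Oaf1, differed by -0.05 (95% interval -0.29 to 0.20), and OAF3, a repressor in the same response, by 0.06 (95% interval -0.05 to 0.17). In all, 1 of the 6 regulators fell, 1 rose and 4 were not called, against 8.35% called lower and 14.1% higher over all genes. Whether the members' values depend on ADR1 was not tested.

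Among 8 counterparts of peroxisomal enzymes in other compartments, 4 rose, 1 fell and 3 were not called. The shares over all genes were 14.1% called higher and 8.35% called lower. Besides CTT1, the counterparts that rose included ERG10, the cytosolic thiolase of sterol synthesis. It rose by 0.18 (limma adjusted p = 0.021, not called by 8 of 17 alternatives). MDH2, cytosolic malate dehydrogenase, rose by 0.84, and CIT1, mitochondrial citrate synthase, by 0.25, which 6 of 17 alternatives did not call. AAT1, the mitochondrial aspartate aminotransferase gene, fell by 0.17, and 12 of 17 alternatives did not call it.

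**Figure D4:**
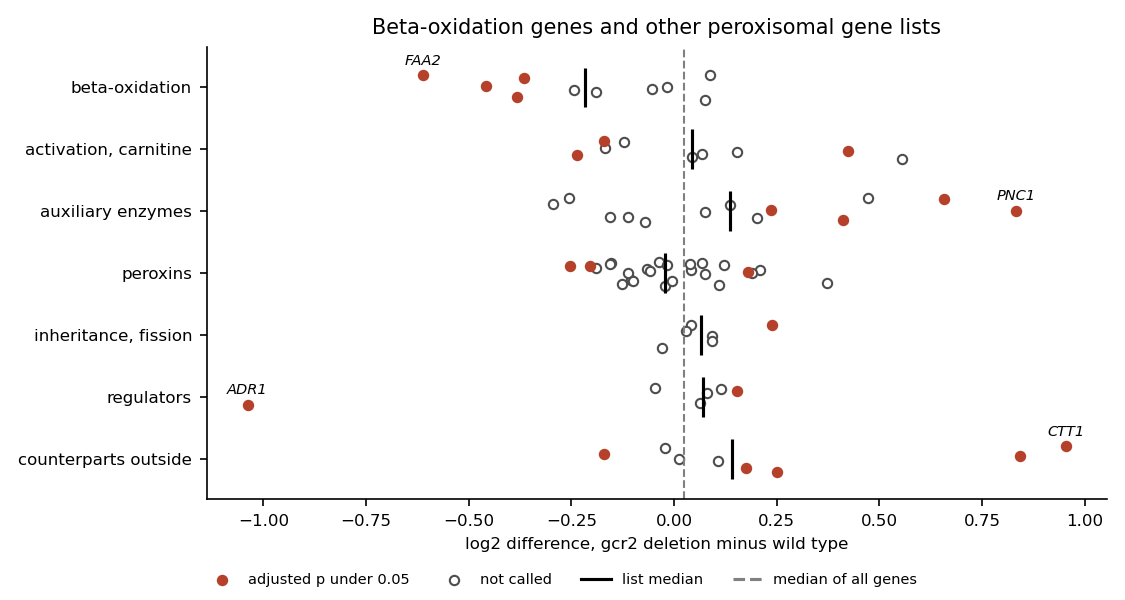
Log2 difference, gcr2 deletion minus wild type (horizontal axis), of every measured gene in 7 lists (rows; vertical scatter within a row has no meaning); filled red points are called genes, open points are not called, black bars are list medians and the dashed line is the median of all genes. The beta-oxidation genes have the lowest of the 7 list medians, -0.22, and ADR1 at -1.04 and CTT1 at 0.95 are the outermost points.

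Markers of mating type were read on the same arrays. All 7 genes of mating type a and all 4 of mating type alpha were above background on every array. Their levels differed, with a median log2 level of 13.03 over the mating type a genes and 8.02 over the mating type alpha genes. MF(ALPHA)1 cleared background by as little as 0.06. Mating type a genes summed to between 56474 and 66643 on deletion arrays and to between 51588 and 62955 on wild-type arrays, of which 2 rose and 5 were not called. Mating type alpha genes summed to between 1960 and 2025 on deletion arrays and to between 1571 and 1847 on wild-type arrays, of which STE3 rose by 0.91 and 3 were not called. Among all genes 14.1% were called higher and 8.35% lower. The part of mating type in the members' values was not tested. In bulk samples, fewer expressing cells and less RNA per cell cannot be told apart.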

How the data were processed

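Total RNA of 3 gcr2 deletion and 3 wild-type samples was labelled with biotin and hybridized to 1-colour Affymetrix yeast arrays. The authors deposited 1 table of probe-set intensity values on a linear scale for 10928 probe sets. Per the submitters' processing notes these were made in R 2.8.0 with affy and RMA, which equalises the intensity distributions of the arrays, so changes are relative to the rest of each array. The probes' genome build: not given in the sources used here, so no coordinates are printed. No array column was left unmapped, and no arrays held identical values.

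Here log2 was taken with no pseudocount. Of the probe sets, 7244 had 1 annotated gene, 1 had several and 3683 were not listed in the annotation. By gene ID, 5498 matched RefSeq (assembly R64, used for names and gene order only). The brightest probe set was kept for the 47 genes with several, giving 5449 genes; 1746 probe sets with 1 gene matched no S. cerevisiae gene and set the background. No gene was removed for low signal. Limma 3.58.1 in R 4.3.3 (lmFit, eBayes, two-sided, no covariates) compared the groups; the number of arrays limits the precision. On simulated data with 5449 genes it called 11, 36, 48 and 50 of 50 genes changed by 0.3, 0.5, 1 and 2 (log2). There 5249 genes were unchanged, of which 7 were called. On the deposited arrays 22.5% of genes were called, so the simulated sensitivity need not carry over.

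The members and lists were chosen with earlier results of these data known. Named genes are all members, GCR2, ADR1, OAF1, PIP2, OAF3, CTT1, ERG10 and up to 4 called genes with the smallest adjusted p of each related list; IDP3, MDH3, TES1, CRC1, FAA1, FAA3, FAA4, STE3, the sporulation markers and the called neighbours of members were named after their values were seen. Alternatives were the replicate block, leaving out arrays, quantile or median rescaling, dropping dim genes, averaging probe sets, a trended prior, array weights, a pseudocount of 16 and a threshold of 0.01, and, chosen after seeing the data, leaving out both wild-type replicate 3 and deletion replicate 1 and centring on 24 poly-A spike-in control probe sets. The planned promoter and protein features were not analysed here.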

Additional observations from a re-analysis of the deposited data

How the results depend on the processing

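Leaving out each array in turn gave 406 to 1225 called genes (239 to 751 higher, 167 to 474 lower in the deletion), 2 to 4 called members, all lower, and a members' median of -0.29 to -0.13. The genes of the related lists gave 6 to 14 calls (5 to 10 higher, 1 to 4 lower), against 18 (12 higher, 6 lower) with all arrays. With the replicate block 733 genes were called (433 higher, 300 lower) and 2 members. Deviations of same-numbered arrays from their group means had correlations of 0.53, -0.17 and -0.44 for numbers 1, 2 and 3. With 3 arrays in each group these values cannot show whether the numbers pair the samples, and the labels do not say. With wild-type replicate 3 and deletion replicate 1 left out together, 328 genes were called (199 higher, 129 lower), 2 members, both lower, and 5 genes of the related lists (4 higher, 1 lower). At an adjusted p under 0.01 the numbers were 347 (224 higher, 123 lower), 1 member (CTA1, lower) and 6 (5 higher, 1 lower).

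Centring on poly-A spike-in controls, which averaged 7.20 ± 0.25 on deletion arrays and 8.11 ± 0.41 on wild-type arrays, gave 4982 called genes (4974 higher, 8 lower), 6 members higher and 0 lower, 65 related genes higher and 0 lower, and a members' median of 0.69. The differences that turned were POX1 at 0.89, POT1 at 0.52, FAA2 at 0.29, PXA1 at 0.72, PXA2 at 0.85, ECI1 at 0.54, DCI1 at 0.66, CTA1 at 0.45 and PIP2 at 0.86; FAA2, CTA1, ECI1 and POT1 were then not called, and ADR1 lost its call (-0.13). The cause was not tested, and the labels name no preparation batch. Signal over background limits POT1 and POX1, which dropping dim genes removes.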

Other observations

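The genes next to the members on the chromosome, in the gene order of assembly R64, were read as well. Of 20 neighbours, 16 were measured; 3 fell, 1 rose and 12 were not called by limma, so 4 of 16 were called, close to the 22.5% called over all genes. NNT1, beside ECI1, fell by 0.20 (adjusted p = 0.034), and FAT3, a fatty acid uptake gene beside PXA2, fell by 0.31 (adjusted p = 0.021). NOP53, a ribosome biogenesis gene beside PXA1, fell by 0.46, and CHC1, the clathrin heavy chain gene beside POX1, rose by 0.32. The measured neighbours of FAA2, CTA1 and POT1 were not called.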
